A study of Mus musculus with 6 samples.

Results

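Semaphorins, plexins, ephrins and the other guidance ligands and receptors were followed in the abdominal adipose tissue of mice after intestinal bypass. The genes were chosen by name: every symbol on the array that begins as those of the semaphorins (Sema), plexins (Plxn), neuropilin 2 (Nrp2), Robo, Slit, Eph receptors, ephrins (Efn), Unc5 or netrins (Ntn). This gave 67 genes on 100 probes, of 21342 genes on the array, and the probe with the highest mean signal stood for each gene. The name pattern also took Unc50 and Unc5cl, which are not netrin receptors.

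Both groups were C57BL/6 mice put on high-fat food at the age of 6 weeks and randomised to surgery 12 weeks later. The DJB group had a duodenal-jejunal bypass, a rerouting of the upper small intestine, with a biliopancreatic limb of 5 cm and a Roux limb of 4 cm. The Sham group had the same incision and the same cuts through the intestine, sewn back in place, and both groups received buprenorphine at 0.15 mg/kg. Each group had 3 one-colour Agilent arrays. The labels name neither the fat depot, the time after surgery, nor whether each array came from a separate animal, so p-values measure only the spread between these samples.

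Guidance ligands and receptors were first described in growing axons, which they attract or repel. Semaphorins bind plexins, with neuropilins as co-receptors for most of the secreted class 3 forms. Slits bind Robo receptors, netrins bind Dcc and Unc5 receptors, and ephrins, which stay on the cell surface, bind the Eph receptor tyrosine kinases on the neighbouring cell. In adult tissues the same families take part in vessel growth, in the spacing of cells and in the movement of immune cells.

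Values are log2 signals relative to the 75th percentile of their own array, so 0 means a signal at that percentile, and a difference is DJB minus Sham on this log2 scale. They can be compared between arrays for a probe, and not between probes. A gene was called at an adjusted p of 0.05 or less (limma, two-sided, Benjamini-Hochberg adjustment over all 99431 tested probes). With 3 arrays against 3, an exact permutation test of a single gene cannot go below p = 0.1.

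The 75th percentile of the Sham arrays lay between 175.8 and 183.73 intensity units, that of the DJB arrays between 132 and 165.3. Of the 67 genes, 59 to 61 were well above background on each Sham array and 55 or 56 on each DJB array. The tissue label was checked on fat cell markers: all 8 were measured, Adipoq and Plin1 among them, and their summed signal was 3034 to 3520.3 times the percentile in Sham and 1419.9 to 2803.9 times in DJB. The 6 arrays lay on 2 slides, the first with Sham-1, Sham-3, DJB-1 and DJB-2 and the second with Sham-2 and DJB-3.

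Some genes had several probes along the transcript. The sequences for Sema5b, Plxna1 and Efna5 are given here, because their probes differed in the values given later. The cause of these differences was not tested. Each line shows the first 30 of 60 bases of a probe as the files list it, with the position of the probe in its transcript. Positions on the chromosome are those listed in the files, whose build field reads mm9, and exon and UTR annotation was not used here.
Sema5b, position 3234, chr16:35662805-35662834 (+): actggtgtgtcctgcttcctggtttctggg
Sema5b, position 3837, chr16:35663626-35663655 (+): ctgagctgtggacctattgggtatgtgagg
Sema5b, position 4486, chr16:35664275-35664304 (+): ctgctacagcaacaaaaaggatgttaagct
Plxna1, position 6083, chr6 (-): ctcgccttcctctccctgccatgcaggcca
Plxna1, position 8747, chr6:89266558-89266587 (-): agaaagatatttttaaggtgaagcccatga
Efna5, position 529, chr17:63000237-63000266 (-): tcggaaaaattccagctcttcactcccttt
Efna5, position 3328, chr17:62954207-62954236 (-): tgtgattctagcatttgtctctaaccaatg

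Of the 67 genes, 58 were well above background on at least 3 arrays and were tested. In DJB against Sham, 8 were called lower (Epha3, Ephb2, Sema3c, Epha1, Epha4, Sema3b, Sema4g and Efnb2) and 1 was called higher (Plxna1). Among all 18325 tested genes, 6.12% were called lower and 1.42% higher, together 7.54%. At an unadjusted p under 0.05, 23 guidance genes were lower and 4 higher, where 20.3% of all tested genes were lower and 13.4% higher. The median difference was -0.35 over the 58 genes, with 41 below 0 and 17 above, and 0.003 over all tested genes. The arrays of the groups did not overlap for 30 guidance genes, 25 lower and 5 higher in DJB, and 42.1% of all tested genes had such separate groups. In a piece of whole tissue, fewer cells of a type and less RNA per cell cannot be told apart. The probes that stood for Epha5, Epha6, Epha10, Robo2 and Unc5d were above background on no array. Those of Epha7, Epha8, Ntn5 and Unc5cl were above it on 1 or 2 Sham arrays and on no DJB array.

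In the RefSeq gene table (GRCm38) the lower genes lie at chr16:63543532-63864175 (Epha3), chr4:136647536-136836326 (Ephb2), chr5:17574816-17730268 (Sema3c), chr6:42358487-42373314 (Epha1), chr1:77367182-77515107 (Epha4), chr9:107597674-107609241 (Sema3b), chr19:44988743-45003397 (Sema4g) and chr8:8617235-8661242 (Efnb2). Plxna1 lies at chr6:89316313-89362613.

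**Figure D1:**
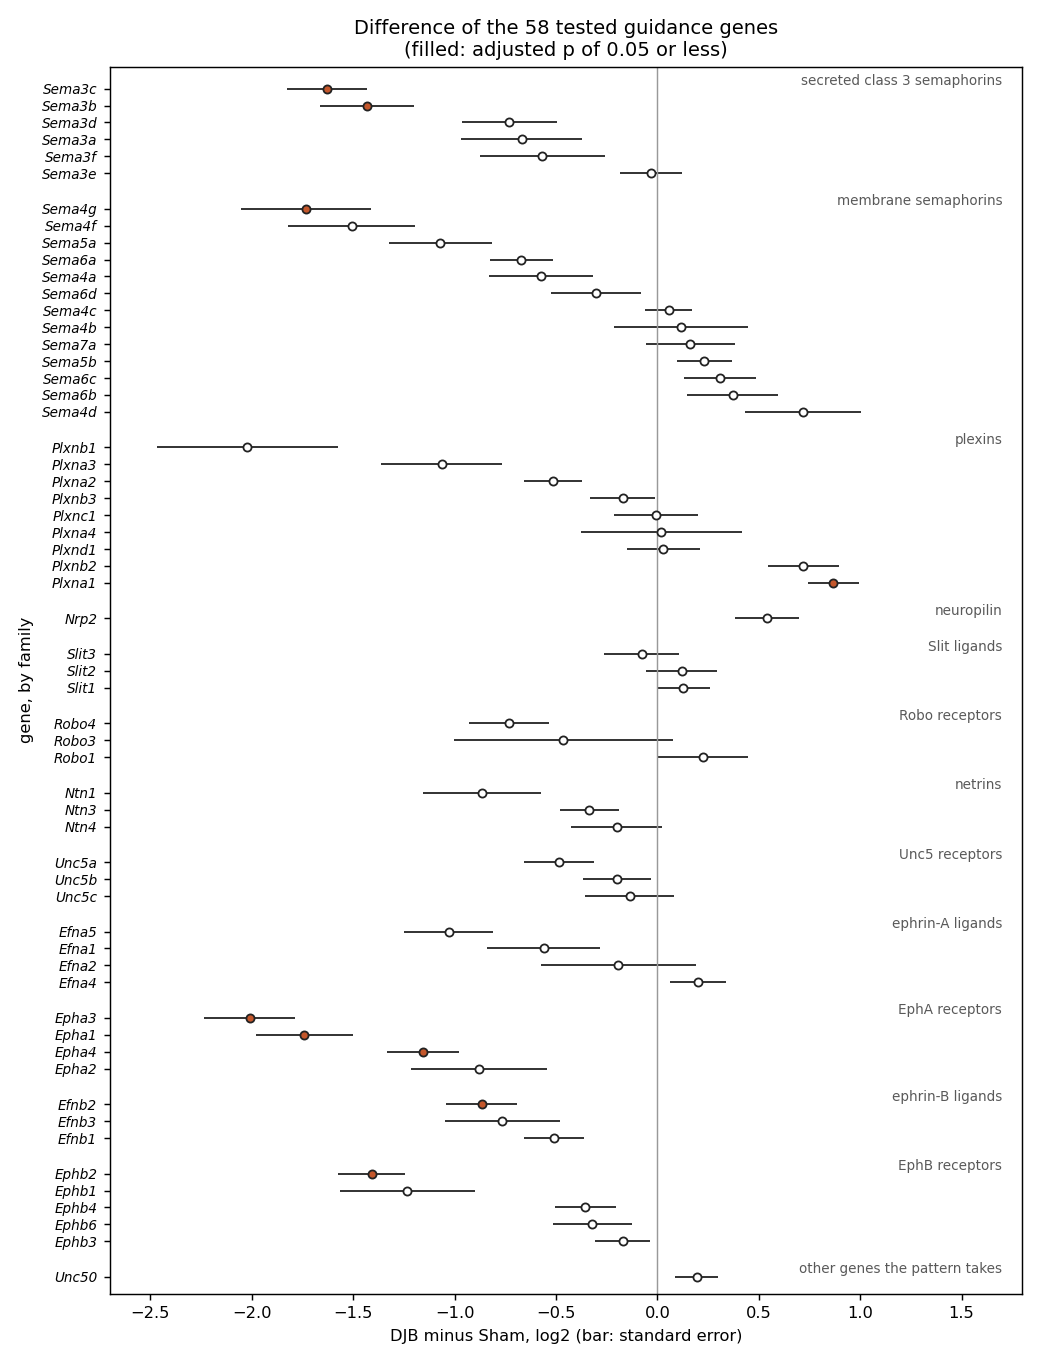
Difference between DJB and Sham (log2, x axis) of each of the 58 tested guidance genes, listed by family on the y axis; bars are standard errors from the limma fit and filled points have an adjusted p of 0.05 or less. The class 3 semaphorins, EphA receptors, ephrin-B ligands and EphB receptors all lie below 0 (Sema3e, Sema3a, Sema3f and Ephb6 turned under another background correction, another scaling or on 1 slide), whereas the membrane semaphorins and plexins spread to both sides.

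All 6 class 3 semaphorins, the secreted forms, had a difference below 0 (median -0.70), although Sema3e turned above 0 under every other scaling, Sema3a under normexp background correction, and Sema3e and Sema3f on the second slide alone. Sema3c and Sema3b were called lower. Sema3c, a secreted semaphorin that signals through neuropilins and plexin D1 and is also made by fat cells, read 0.07, 0.18 and 0.06 in Sham and -1.63, -1.83 and -1.12 in DJB. Every DJB array lay more than 1 log2 unit under every Sham array, and the Sham values were close together. The difference was -1.63 (SE 0.20, adjusted p = 0.0230, n = 3 per group), with -1.80 on the first slide and -1.30 on the second. Sema3b, another secreted repellent of axons, read 1.75, 1.49 and 1.06 in Sham and 0.001, -0.29 and 0.30 in DJB. The groups did not overlap, although arrays within each group spread more than for Sema3c. The Sema3b difference was -1.43 (SE 0.23, adjusted p = 0.0354).

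The other class 3 semaphorins were not called. Sema3d, expressed in the developing heart and nervous system, had a difference of -0.73 (SE 0.23, adjusted p = 0.111) with no overlap between groups. Sema3a, the classic collapsing factor of sensory axons, differed by -0.67 (SE 0.30), and Sema3f, a ligand of Nrp2, by -0.57 (SE 0.31), and in both the groups overlapped. Sema3e, the plexin D1 ligand that attracts macrophages into obese fat, was at -0.03 (SE 0.15).

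A stretch of the Sema3c promoter is shown because Sema3c is the class 3 semaphorin with the smallest p. It covers the 250 bases before the gene's start (chr5:17574566-17574815, plus strand, RefSeq, GRCm38.p6), and capitals mark the GC box letters GGGCGG and the letters ACGTG on either strand.
Sema3c promoter: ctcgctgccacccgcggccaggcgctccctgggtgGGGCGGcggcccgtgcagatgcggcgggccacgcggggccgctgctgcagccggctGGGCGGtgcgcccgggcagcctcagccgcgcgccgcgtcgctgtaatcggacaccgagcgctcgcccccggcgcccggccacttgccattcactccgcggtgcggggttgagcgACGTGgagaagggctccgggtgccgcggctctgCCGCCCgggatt
A script found 3 GC boxes and 1 ACGTG in it. Over promoters of this length, GGGCGG stood in 36 of the 50 tested guidance genes that had an entry (72.0%) and in 32.74% of all 32851 promoters. ACGTG stood in 8 of those 50 (16.0%) and in 16.57% of all. The guidance genes were tested genes with their first listed promoter only. The promoters of all genes were every entry, also those of genes not tested here. The sets are thus not matched, and no enrichment was tested. Among the 7 called genes with an entry, 5 held GGGCGG (Efnb2, Epha1, Epha4, Sema3c and Sema4g) and 3 held ACGTG (Epha4, Sema3c and Sema4g). These are matches of letters, not shown to be sites.

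The 13 membrane semaphorins spread to both sides: 6 lay below 0 and 7 above (median 0.05), and Sema4g alone was called. On the second set of probes described further on, 9 of the 13 lay below 0 (median -0.44). Sema4g, a class 4 transmembrane semaphorin, read -2.22, -2.42 and -2.69 in Sham and -4.71, -4.32 and -3.49 in DJB. DJB-3 lay nearer to the Sham arrays than the other DJB arrays did, and the groups did not overlap. The difference was -1.73 (SE 0.32, adjusted p = 0.0428), with -2.06 on the first slide and -1.08 on the second. The call ended under each other scaling (adjusted p between 0.05 and 0.0530) and under normexp, where the difference was -0.28 (adjusted p = 0.106). Sema4f, also of class 4, was above background on all 3 Sham arrays and on no DJB array. With the DJB values raised to the lowest value read above background on their arrays, the mean signal was 2.21-fold higher in Sham. This is an estimate from group means and not a firm minimum. The fitted limma difference of -1.51 (SE 0.31, adjusted p = 0.0506) was not called.

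Sema5a, which carries thrombospondin repeats, read 1.88, 1.54 and 2.10 in Sham and 0.55, 0.49 and 1.26 in DJB. Its groups did not overlap, and DJB-3 was again the highest DJB array (difference -1.07, SE 0.25, adjusted p = 0.0642). Sema6a, a transmembrane semaphorin that signals through plexins A2 and A4, differed by -0.67 (SE 0.16, adjusted p = 0.0611), also without overlap. Sema4a differed by -0.57 (SE 0.26) and Sema6d by -0.30 (SE 0.22), and neither was called. Sema4d (CD100), which is abundant on T cells and binds plexins B1 and B2, ran the other way. It read 2.28, 2.51 and 2.40 in Sham and 3.78, 2.75 and 2.82 in DJB. All DJB arrays were above all Sham arrays, but DJB-1 stood about 1 log2 unit over the other 2, and the difference of 0.72 (SE 0.29, adjusted p = 0.166) was not called. Sema7a, a lipid-anchored semaphorin of immune cells, was at 0.16 (SE 0.22).

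The 9 plexins, the semaphorin receptors, split into higher and lower members, with a median of -0.006 that became 0.10 with median scaling. Plxna1, which serves class 3 semaphorins together with neuropilins and Sema6d directly, was the 1 guidance gene called higher. It read 4.12, 4.46 and 4.30 in Sham and 5.10, 5.19 and 5.19 in DJB. The DJB arrays were within 0.1 of each other and all above the Sham arrays. The difference was 0.87 (SE 0.13, adjusted p = 0.0299), a 1.82-fold higher signal, with 0.94 on the first slide and 0.73 on the second. Plxnb2, a receptor for Sema4d and Sema4c, was higher by 0.72 on its brightest probe (SE 0.17, adjusted p = 0.0657). Its second probe had a difference of 0.65 (SE 0.12, adjusted p = 0.0414), which passed the threshold.

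Plxnb1, the Sema4d receptor, had the most negative difference of all 58 genes and a wide spread. It read 0.52, 0.12 and -0.65 in Sham and -1.78, -2.86 and -1.45 in DJB. The groups did not overlap, but Sham-3 lay more than 1 log2 unit under Sham-1. The difference was -2.02 (SE 0.45, adjusted p = 0.0565), and a second probe of the gene passed the threshold with -2.06 (SE 0.36, adjusted p = 0.0397). Plxna3 differed by -1.06 (SE 0.30, adjusted p = 0.0865) and Plxna2 by -0.51 (SE 0.14, adjusted p = 0.0855), both without overlap. Plxnd1, the receptor of Sema3e, was at 0.03 (SE 0.18), and Plxnc1, that of Sema7a, at -0.006 (SE 0.21). Plxna4 was at 0.02 with the widest spread within DJB of any plexin, from 2.16 on DJB-2 to 3.74 on DJB-1 (SE 0.40). The signs of these last 3 turned under other scalings or probes. Nrp2, the co-receptor of Sema3f and of the lymphatic growth factor Vegfc, read 5.62, 5.95 and 6.05 in Sham and 6.60, 6.36 and 6.28 in DJB. The groups did not overlap, and the difference of 0.54 (SE 0.16, adjusted p = 0.0960) was not called.

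Most macrophage markers were also above 0. Of 9 markers, 8 lay above 0 and 1 below (Cd163, -0.56), with a median of 0.52. Of these, 3 were called higher (Cd68, Itgam and Gpnmb) and none lower, where 1.42% of all tested genes were called higher. Their summed signal was 1716.5 to 2145.5 times the percentile in Sham and 2751.3 to 3166.9 times in DJB. Of 6 neutrophil markers, 5 lay above 0 and 1 below, and S100a9 was called higher. The part of these cells in the Plxna1, Plxnb2, Nrp2 and Sema4d values was not tested.

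The ephrins and Eph receptors leaned to lower values. Of 16 tested, 15 were below 0 (median -0.82), 5 were called lower and none higher, and the groups did not overlap for 10, all lower in DJB. Of all tested genes 6.12% were called lower, and 42.1% had groups that did not overlap in either direction. Under normexp Efna2 and Ephb6 were also above 0, and on the second slide alone Efna1, Efna2 and Ephb6 were. None of the 4 ephrin-A ligands, which are held to the membrane by a lipid anchor, was called by limma (median -0.38), and 1 was lower at an unadjusted p under 0.05. Efna5 read 2.34, 2.35 and 2.73 in Sham and 1.11, 1.38 and 1.84 in DJB, a difference of -1.03 (SE 0.22, adjusted p = 0.0529) without overlap. Efna1, an early response gene of activated endothelium, differed by -0.56 (SE 0.28), and its DJB-3 value of 0.37 lay among the Sham values. Efna4 was at 0.20 (SE 0.14) and Efna2 at -0.19 (SE 0.38).

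All 4 tested EphA receptors were lower in each DJB array than in each Sham array, with a median difference of -1.45, and 3 were called. Epha3, a receptor for ephrin-A5, read -2.48, -3.21 and -2.75 in Sham and -5.07, -4.59 and -4.81 in DJB. It was above background on all 3 Sham arrays and on only 1 DJB array, so the DJB values were near the detection limit. The difference was -2.01 (SE 0.22, adjusted p = 0.0201), the smallest p of the guidance genes, with -2.21 on the first slide and -1.60 on the second. Under normexp background correction it was -0.25 and not called (adjusted p = 0.0925). Epha1, which binds ephrin-A1 and is known from epithelia, read 0.17, -0.35 and -0.64 in Sham and -2.19, -2.12 and -1.73 in DJB. Every DJB array lay more than 1 log2 unit under every Sham array, and the difference was -1.74 (SE 0.24, adjusted p = 0.0283).

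Epha4, which binds ephrins of both the A and the B class, read 0.005, -0.45 and -0.008 in Sham and -1.09, -1.44 and -1.39 in DJB. The groups were apart, with a difference of -1.16 (SE 0.18, adjusted p = 0.0322). Epha2, the main ephrin-A1 receptor of epithelium and endothelium, read 1.78, 1.59 and 1.69 in Sham and 0.22, 0.64 and 1.56 in DJB. DJB-3 all but reached the lowest Sham array, and the difference of -0.88 (SE 0.33, adjusted p = 0.152) was -1.31 on the first slide and -0.03 on the second.

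All 3 ephrin-B ligands, which span the membrane and can signal in their own cell, were below 0 (median -0.76). Efnb2, a marker of arterial endothelium, read 2.28, 1.94 and 2.25 in Sham and 1.24, 1.06 and 1.57 in DJB. The groups did not overlap, and the difference of -0.87 (SE 0.18, adjusted p = 0.0491) was -1.12 on the first slide and -0.37 on the second. Efnb1 differed by -0.51 (SE 0.15, adjusted p = 0.0915) and Efnb3 by -0.76 (SE 0.28, adjusted p = 0.146). All 5 EphB receptors were below 0 (median -0.36), except that Ephb6 turned above 0 under normexp and on the second slide alone. Ephb2, an ephrin-B receptor that keeps cell populations apart in the gut and the nervous system, read 0.79, 0.36 and 0.37 in Sham and -0.93, -1.04 and -0.75 in DJB. Each DJB value was more than 1 log2 unit under each Sham value, and the difference was -1.41 (SE 0.16, adjusted p = 0.0219). Ephb1 differed by -1.23 (SE 0.33, adjusted p = 0.0810) without overlap. Ephb4, the venous receptor for ephrin-B2, was at -0.36 (SE 0.15, adjusted p = 0.183), also without overlap. Ephb6, whose kinase domain is inactive, was at -0.32 (SE 0.19) and Ephb3 at -0.17 (SE 0.13), and for both the groups overlapped.

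**Figure D2:**
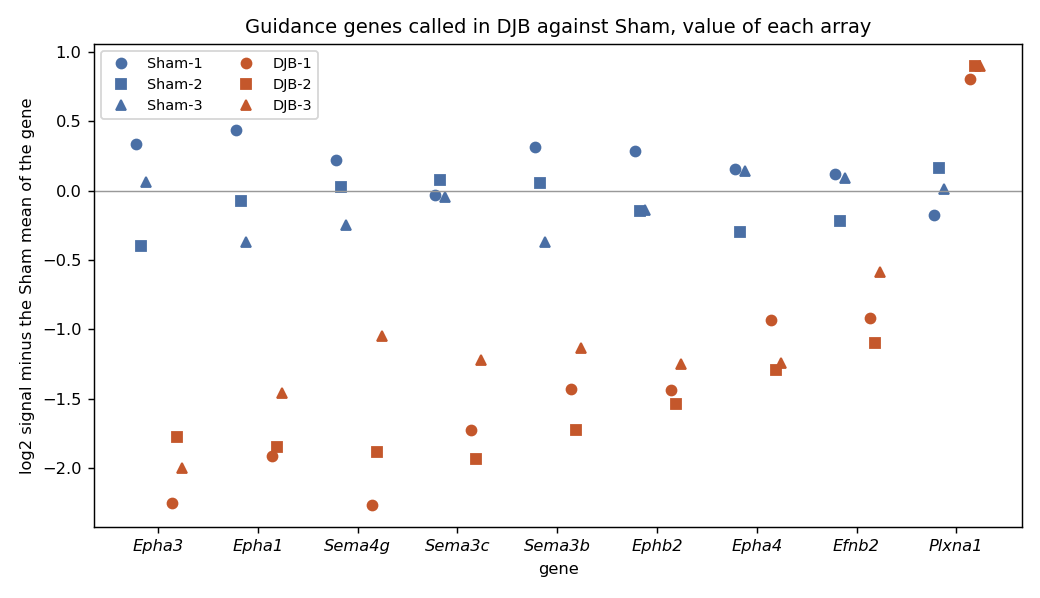
Log2 signal of each array minus the Sham mean of the gene (y axis) for the 9 called guidance genes (x axis), Sham in blue and DJB in orange, with a symbol for each replicate number. For every gene the 3 DJB points lie apart from the 3 Sham points, and DJB-3 is the DJB array nearest to Sham in Epha1, Sema4g, Sema3c, Sema3b, Ephb2 and Efnb2.

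Of the 41 guidance genes with a difference below 0, DJB-3 was the highest of the DJB arrays in 28, DJB-2 in 7 and DJB-1 in 6. DJB-3 shared the second slide with Sham-2. All 9 called genes had the same sign on both slides, which followed from their groups not overlapping. With the slide as a block, Epha3 (adjusted p = 0.0408) and Sema3c (adjusted p = 0.0355) were still called, the other 7 lay between 0.0504 and 0.0816, and 1.31% of all tested genes were called. The calls also changed when single arrays were left out. None of the 9 was called without Sham-1, DJB-1 or DJB-2, and only Epha3 was called without Sham-2. Without Sham-3, 5 lower were called, and without DJB-3, 12 lower and 1 higher. Calls over all tested probes moved as well, from 3137 lower and 1830 higher with all 6 arrays. They were 118 and 1 without Sham-1, 728 and 106 without DJB-1, and 188 and 5 without DJB-2. They were 314 and 21 without Sham-2, 2727 and 396 without Sham-3, and 3181 and 790 without DJB-3.

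Among markers of cell types that fat can hold, several lists leaned lower in DJB. The calls in these lists stand beside 6.12% of all tested genes called lower and 1.42% called higher. All 8 adipocyte markers were below 0 (median -1.01), with Lep called (-2.96, adjusted p = 0.0435) and the sums given above. Of 7 lymphatic markers 6 were below 0, with Prox1 called lower and Pdpn higher, and sums of 105.9 to 361.34 in Sham and 69.223 to 162.43 in DJB. Of 8 T and B cell markers 7 were below 0 and none was called by limma (4 lower at an unadjusted p under 0.05), with sums of 16.49 to 38.439 and 14.499 to 18.663. All 9 endothelial markers were below 0, with Kdr called (-0.83, adjusted p = 0.0242), and their summed signal was 333.67 to 377.1 times the percentile in Sham and 179.57 to 274.96 times in DJB. Of 8 smooth muscle and pericyte markers, 4 were called lower (Acta2, Myh11, Cnn1 and Rgs5) and none higher, with sums of 363.1 to 508.4 and 157.68 to 206.07. Pdgfrb of that list lay above 0 (0.18) and was not called. Of 10 mesothelial markers, 2 were called lower (Krt19 and Rspo1), with sums of 174.47 to 217.05 and 37.096 to 91.858. Of the skeletal muscle markers, 5 of 7 tested were called lower, with sums of 32.746 to 90.552 and 3.6211 to 6.7998, and Myh4 was above background on no array. Ckm (0.28) and Myh1 (0.20) lay above 0 and were not called. Of 6 liver markers, 4 were called lower, with sums of 26.412 to 37.365 and 4.7185 to 12.728, while Apoa1 (1.62) and Ttr (0.44) lay above 0 and were not called. Of the 8 fibroblast markers none was called (median 0.03), with sums of 1431.9 to 1837.7 and 1841.7 to 2080.2. The part of these cells in the lower semaphorin, ephrin and Eph values was not tested.

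The Slit, Robo, netrin and Unc5 families held no gene called by limma, where 7.54% of all tested genes were called. At an unadjusted p under 0.05, 1 Robo, 1 netrin and 1 Unc5 gene were lower and none was higher. The 3 Slit ligands, secreted repellents, stayed between -0.08 and 0.13, with Slit2 at 0.12 (SE 0.17) and Slit3 at -0.08 (SE 0.18). Robo4, the Robo receptor of endothelium, read 6.39, 6.24 and 6.35 in Sham and 5.17, 5.79 and 5.82 in DJB. The Sham arrays lay close together and above all DJB arrays, of which DJB-1 was the lowest, and the difference was -0.73 (SE 0.20, adjusted p = 0.0815). Robo1 was at 0.22 (SE 0.23), and Robo3, above background on only 2 DJB arrays, at -0.47 (SE 0.54). Ntn1, a laminin-related cue that retains macrophages in obese fat, read -0.79, -0.93 and -0.98 in Sham and -2.02, -2.18 and -1.09 in DJB. DJB-3 lay close to the Sham arrays, so the difference of -0.87 (SE 0.29, adjusted p = 0.123) was -1.22 on the first slide and -0.16 on the second. Ntn3 differed by -0.34 (SE 0.14) and Ntn4, a netrin of basement membranes, by -0.20 (SE 0.22). Of the Unc5 receptors, Unc5a was at -0.48 (SE 0.17, adjusted p = 0.137), Unc5b, the vascular form, at -0.20 (SE 0.17), and Unc5c at -0.14 (SE 0.22).

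A second set of probes gave the same genes another reading. The array also carries probes that bear only a RefSeq accession as their name, so the name pattern did not take them, and 66 of the 67 genes had 1 such probe. They read the same RNA on the same arrays, so they check the probe and not the animals, and 6 of them shared 30 or more bases with a symbol-named probe. Of 61 tested, 9 were called lower and none higher, where 6.53% of all 16219 tested probes of this kind were called lower and 7.77% in either direction. The median difference was -0.44, with 50 below 0 and 11 above. Of the 57 genes tested on both sets, 49 had the same sign.

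All 9 called genes kept their sign on the accession-named probes, and 5 passed the threshold there too. These were Sema3c (-1.92, SE 0.14, adjusted p = 0.00825), Ephb2 (-1.44), Efnb2 (-1.07), Epha3 (-1.55) and Epha1 (-1.08). The Epha3 probe of this set was above background on all 6 arrays. The other 4 were not called: Sema4g at -0.56 (adjusted p = 0.0503), Plxna1 at 0.65 (adjusted p = 0.0543), Sema3b at -1.73 (adjusted p = 0.0920) and Epha4 at -0.52 (adjusted p = 0.428). For Sema4g the value was nearer to 0 than the -1.73 of the symbol-named probe. The Sema3b probe of this set was above background on 3 Sham arrays and 1 DJB array. That of Epha4 was above it on 2 Sham arrays and 1 DJB array, and its groups overlapped. A further 4 genes were called lower on this set alone: Plxnb1 (-2.24, adjusted p = 0.0378), Ephb1 (-1.46, adjusted p = 0.0294), Efna5 (-1.18, adjusted p = 0.0486) and Sema6a (-0.75, adjusted p = 0.0428). Sema4f was above background on all 6 arrays with this probe and differed by -1.24 (SE 0.29, adjusted p = 0.0638). The accession-named probes of Epha8 (above background on all 6 arrays, difference -0.23, SE 0.42), Epha5 (above it on 2 Sham arrays and 1 DJB array, -0.94, SE 0.77) and Epha6 (above it on 1 Sham and 2 DJB arrays, 0.77, SE 0.55) were tested and not called. Those of Epha7, Epha10, Ntn5, Robo2 and Unc5d were above background on no array. Unc5cl, untested on its symbol-named probe, was above background on 3 Sham and 2 DJB arrays with the accession-named probe, which read 1.08, 0.22 and -3.58 in Sham and -5.07, -4.26 and -3.16 in DJB. Sham-1 and Sham-2 stood far above the other 4 arrays, Sham-3 lay among the DJB arrays, and the difference of -3.40 (SE 1.23, adjusted p = 0.141) was not called.

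**Figure D3:**
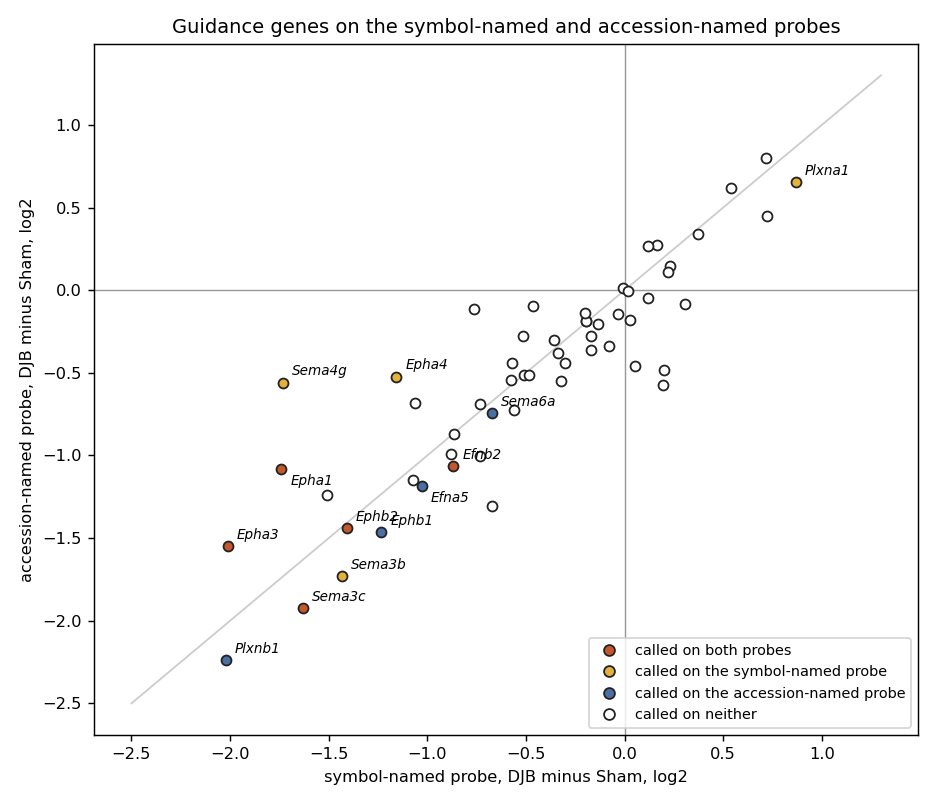
Difference between DJB and Sham (log2) on the brightest symbol-named probe (x axis) and on the accession-named probe (y axis) for the 57 guidance genes tested on both; the grey diagonal marks equal values and colours mark where the adjusted p was 0.05 or less. Sema3c, Ephb2, Efnb2, Epha3 and Epha1 were called on both probes, and 49 of the 57 points have the same sign on both axes.

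Within the symbol-named probes, 24 genes had more than 1 tested probe, and the signs were mixed in 5 (Efna5, Plxnc1, Sema4c, Sema5b and Sema6a). The widest gap was in Sema5b, a class 5 semaphorin with thrombospondin repeats. Its brightest probe, at position 3234, read 0.58, 0.33 and 0.65 in Sham and 0.88, 0.73 and 0.64 in DJB (difference 0.23, SE 0.14, adjusted p = 0.310). The probe at position 3837 read -2.29, -2.43 and -2.42 in Sham and -4.97, -4.56 and -3.58 in DJB (difference -1.99, SE 0.35, adjusted p = 0.0392). The probe at position 4486 read -2.61, -2.99 and -2.44 in Sham and -4.76, -5.11 and -4.55 in DJB (difference -2.13, SE 0.21, adjusted p = 0.0156). The later probes thus passed the threshold and the first did not, and each of the later ones was above background on 3 Sham and 2 DJB arrays. The accession-named probe of Sema5b gave 0.15 (SE 0.12, adjusted p = 0.473), near the first. No single direction is therefore given for Sema5b.

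The Plxna1 call came from the probe at position 8747. The probe at position 6083 read 3.88, 3.75 and 3.83 in Sham and 4.09, 4.12 and 3.89 in DJB. The groups did not overlap there either, but the difference was only 0.22 (SE 0.12, adjusted p = 0.273). Efna5 was lower on the probe at position 3328 and at 0.009 (SE 0.18) on the probe at position 529, which is listed for another transcript of the gene. Ephb2 was called on both of its probes (-1.41 and -1.58), and the second probes of Efnb2 (-0.83) and Epha4 (-0.90) had the direction of the first.

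**Figure D4:**
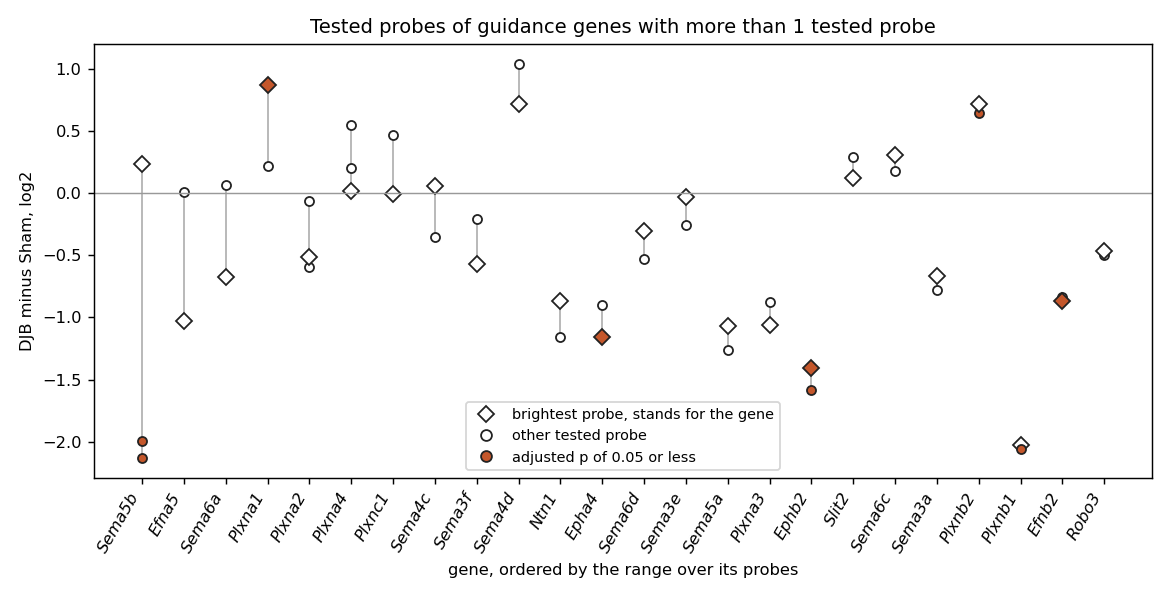
Difference between DJB and Sham (log2, y axis) of each tested symbol-named probe for the 24 guidance genes with more than 1 such probe, ordered by their range (x axis); diamonds are the brightest probes and filled symbols have an adjusted p of 0.05 or less. The 3 Sema5b probes span 0.23 to -2.13, while the probes of Plxnb1, Plxnb2, Efnb2 and Robo3 lie within 0.1 of each other.

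Selected pairs of ligands and receptors known to bind each other were set side by side, and none of these pairs had both partners called. The selection was not complete. It did not pair Efnb2 with Ephb2 or Epha4, which also bind ephrin-B ligands, and each of these genes was called lower. Of 32 ligands tested, 4 were called lower (median -0.42), and of 25 receptors 4 were called lower and 1 higher (median -0.36). Over all tested genes the shares were 6.12% lower and 1.42% higher. Sema3c was lower while its receptor Plxnd1 was at 0.03. Plxna1 was higher while its ligand Sema6d was at -0.30. Sema4d, at 0.72, faced Plxnb1 at -2.02 and Plxnb2 at 0.72. In the ephrin pairs every partner was below 0, as for Efnb2 (-0.87) and Ephb4 (-0.36), Efnb1 (-0.51) and Ephb2 (-1.41), and Efna5 (-1.03) and Epha4 (-1.16). Slit2 at 0.12 faced Robo4 at -0.73, and Ntn1 at -0.87 faced Unc5b at -0.20.

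**Figure D5:**
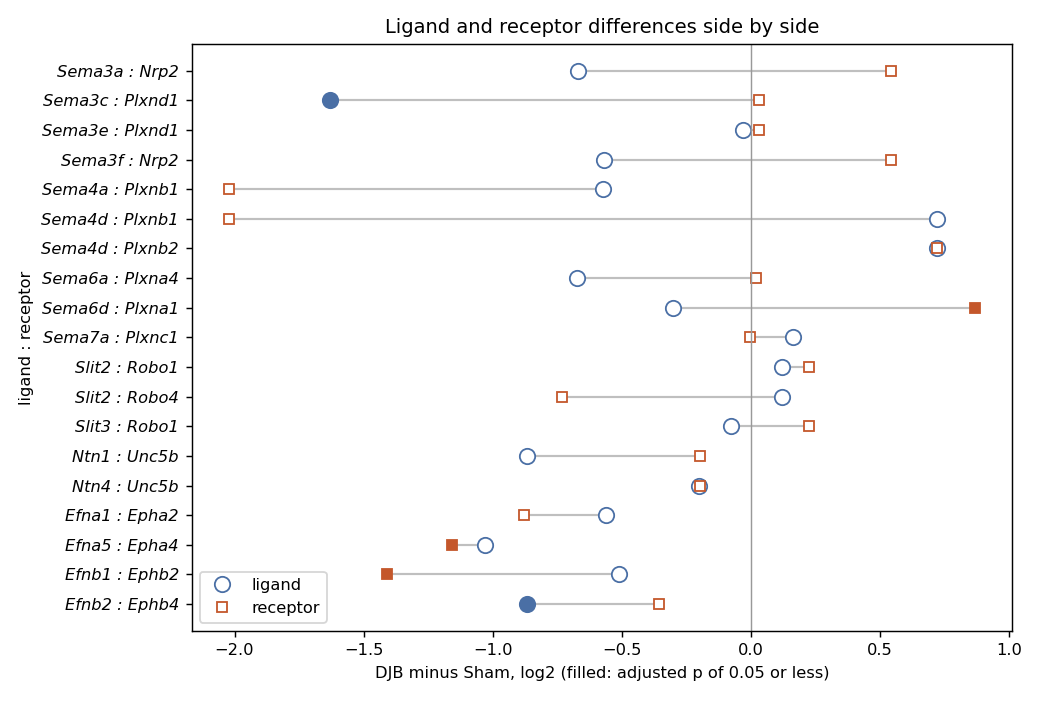
Difference between DJB and Sham (log2, x axis) of the ligand (circle) and the receptor (square) of 19 pairs with both partners tested (y axis); filled symbols have an adjusted p of 0.05 or less. None of the pairs shown has both symbols filled. The 4 ephrin and Eph pairs shown lie wholly below 0, and Sema4d with Plxnb1 lies on opposite sides.

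Other genes of the same pathways were taken from fixed lists, and their counts stand beside the 7.54% of all tested genes that were called. Of 15 further guidance receptors and cues tested, 2 were called lower and none higher (median -0.05). These were Flrt1, a membrane protein that binds Unc5 receptors (-2.65, SE 0.16, adjusted p = 0.00579), and Rgma, a repulsive guidance molecule that binds neogenin (-0.62, SE 0.12, adjusted p = 0.0445). The netrin receptor Dcc was above background on no array. Of 24 genes that carry semaphorin and plexin signals, 1 was called lower (Farp1, -0.75, adjusted p = 0.0380) and none higher (median 0.20). Of 16 in Slit and Robo signalling, 1 was called higher (Gpc1, a cell surface proteoglycan that binds Slit, 0.58, adjusted p = 0.0456) and none lower. Of 19 tested in ephrin and Eph signalling, Chn1, the chimaerin that acts behind Epha4, was called lower (-1.13, SE 0.12, adjusted p = 0.0183). Adam10, the protease that cleaves ephrins, was called higher in that list (0.59, SE 0.11, adjusted p = 0.0465).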

How the data were processed

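RNA from 3 Sham and 3 DJB samples of abdominal adipose tissue was hybridised to one-colour arrays. Per the file headers, spots were quantified with Agilent Feature Extraction 12.0.3.1 (protocol GE1_1200_Jun14), and the deposited processed intensity is background-subtracted and not scaled between arrays. A second deposited table holds the authors' log2 values for these arrays and was used only as an alternative, and the submitters' processing notes name limma with no version.

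From the processed intensity, log2 was taken and the 75th percentile over the 150305 non-control probes of each array subtracted. Outlier spots, 18 to 25 per array, were left out, and no spot was saturated. Probes well above background on at least 3 of 6 arrays were tested with limma 3.58.1 (lmFit and eBayes, two-sided, prior degrees of freedom 2.26) in R 4.3.3, without covariates, and with adjustment over all 99431 tested probes. Figures used Python 3.11.15 and matplotlib 3.10.9. Symbols came from the files, and all 67 guidance symbols matched the RefSeq gene table (GRCm38). The listed probe positions do not follow that build: 9.791% of 27913 lay in their gene there.

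On simulated data for DJB against Sham (99431 probes), with 200 probes changed, none of those changed by 1 log2 unit was called and 70% of those changed by 2 were. With 9943 changed by -2, 92.608% were called. With so few changed probes, a gene whose difference is near 1 can thus be missed. The change of 1 was not simulated with more changed probes, and in the data 4967 probes were called. The share of such changes missed in the data was therefore not measured.

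The members, lists and ligand pairs were chosen with earlier results of these data known. Named were all called guidance genes, the 15 others with the smallest p, genes above background in only 1 group, the paired ligands and receptors, and called genes of the other lists (at most 4 a list). Some of the list results are not reported here. Genes named outside these rules, such as the remaining family members, were named after their values were seen. Alternatives covered scaling, background correction, the filter, the probe, the slide, the replicate number, the prior and each array left out, and the accession-named probes were added after the data were seen.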

Additional observations from a re-analysis of the deposited data

How the results depend on the processing

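All 9 called guidance genes kept their direction under every alternative run, and the median of the guidance genes stayed below 0 in all of them. The groups of these 9 did not overlap, so leaving out an array or taking a single slide could not turn their sign. The prior and the block settings left the differences as they were. None of these settings thus tests the direction of the called genes. Counts of calls moved more. Against 8 lower and 1 higher, normexp background correction gave 15 lower and 2 higher (median -0.15), a trended robust prior 16 and 3, probes above background on all 6 arrays 11 and 2, and no filter 2 and 0. The mean of all probes of a gene gave 7 lower and 0 higher, and the accession-named probes 9 and 0. Slide as a block gave 2 and 0, the first slide alone 0 and 0 (median -0.53), and the second slide, with 1 array per group and no test, a median of -0.12. Median scaling, which moved the median of all probes from 0.08 to 0.19, gave 6 and 1, and quantile normalisation and the authors' values gave 8 and 1 each, with Sema4g lost and Efna5 gained in both. Over all probes, 63.157% of the calls were lower, against 51.526% with median scaling and 41.151% with normexp. The number of these calls moved as well, from 3137 lower and 1830 higher to 4899 and 7006 with normexp. They were 5328 and 5286 with the trended robust prior, 4064 and 3485 for probes above background on all 6 arrays, and 576 and 73 with no filter. Slide as a block left 619 and 88, and the first slide alone 0 and 0. For the guidance genes, leaving out 1 array at a time gave 0 to 12 lower, 0 to 1 higher and a median of -0.48 to -0.26.

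The replicate number as a block gave 0 lower and 0 higher calls, both among the guidance genes and over all tested probes. Arrays of the same number did not deviate together (r of -0.18, -0.12 and -0.29 for numbers 1, 2 and 3). No Sham array went best with the DJB array of its number. With so few arrays per group, these values cannot decide whether the numbers pair the samples.

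No called gene turned its sign, within the limit given above. The named genes that turned were mostly near 0, with Sema3a (-0.67) the main exception. On the second slide alone, which allows no test, Sema3f was at 0.048, Efna1 at 0.14 and Sema6d at 0.15, on the first slide Robo3 was at 0.23, and on its accession-named probe Efna4 was at -0.48. With median scaling Sema3e was at 0.072, Slit3 at 0.027 and Plxnc1 at 0.10. Sema3e was at 0.057 and Plxna4 at -0.0073 with quantile normalisation, and at 0.054 and -0.0100 with the authors' values. With normexp, Sema3a was at 0.035, Sema3e at 0.099, Ntn4 at 0.053, Plxnd1 at -0.012 and Plxna4 at -0.034. With the mean of probes Plxnd1 was at -0.076 and Plxnc1 at 0.16. With the accession-named probes Plxnd1 was at -0.18, Plxna4 at -0.0021 and Plxnc1 at 0.012. On the first slide alone Sema7a was at -0.080 and Plxnd1 at -0.037. Leaving out 1 array gave ranges of -0.031 to 0.21 for Slit2, -0.088 to 0.17 for Plxnd1, -0.39 to 0.40 for Plxna4, -0.16 to 0.086 for Sema3e, -0.16 to 0.14 for Plxnc1, -0.24 to 0.093 for Slit3 and -0.032 to 0.37 for Sema7a. The causes of these changes were not tested. Signal over background limited Epha3, Sema4f, Efna2 and Robo3, which were near the detection limit in DJB and not above background on every DJB array. Sema4g was above background on all 3 DJB arrays, but its values there were low (-4.71, -4.32 and -3.49). Its call also ended under normexp.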
